A study of Mus musculus with 50 samples.

Results

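The genes described here are 5 transcription factors of the early trophoblast and its neighbouring lineages (Cdx2, Tfap2c, Tfap2a, Eomes and Hand1) and 4 genes of simple epithelia (Krt7, Krt8, Krt18 and Cldn4), measured by RNA-seq in mouse embryonic stem cells that lack enzymes of histone H3 lysine 9 methylation. They were chosen by name, and all 9 had a row in both deposited tables, among 24412 and 24413 rows. A filter on low values left 7 of them in each table (at least 1 TPM, a share of all transcripts corrected for length, in at least 2 libraries), which were tested. Cdx2 and Tfap2a did not pass it.

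The trophectoderm is the outer epithelium of the blastocyst and the source of the trophoblast of the placenta. CDX2, EOMES, TFAP2C and TFAP2A are factors of trophectoderm and trophoblast stem cells, and HAND1 acts in trophoblast giant cells and in extraembryonic mesoderm. Keratins 8 and 18 pair into the intermediate filaments of simple epithelia, the trophectoderm included, keratin 7 is a type II keratin of such epithelia, and claudin 4 is a tight junction protein. These genes are not exclusive to trophoblast: TFAP2C is also made in germ cells, EOMES in the primitive streak, and keratins 8 and 18 in primitive endoderm. SETDB1, SUV39H1 and SUV39H2, and G9a (encoded by Ehmt2) add methyl groups to histone H3 lysine 9, and DUX is the transcription factor that switches on genes of the 2-cell embryo.

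All 50 libraries were polyadenylated RNA of embryonic stem cells of strain TT2, in 25 groups of 2. In the first table (18 libraries) the groups were Dux-KO:G9a;Suv39h1/2;Setdb1-QKO, which lacks Dux and all 4 enzymes (called Dux-KO QKO here), G9a;Suv39h1/2;Setdb1-QKO (QKO), G9a;Suv39h1/2-TKO, G9a;Setdb1-DKO, G9a-KO, Suv39h1/2;Setdb1-TKO, Suv39h1/2-DKO, Setdb1-KO and control. In the second table (32 libraries) the same 8 genotypes other than Dux-KO QKO carried a doxycycline-inducible Dux transgene (Tet-on-Dux), and the genotype field states Dux-KO for all of them, control included. Each was sampled with doxycycline, at a dose labelled 0.2 in control and Setdb1-KO cells and 1 in the other 6 genotypes with no unit, and without it (dose 0). Titles carry a line code that Setdb1-KO shares with control, Suv39h1/2;Setdb1-TKO with Suv39h1/2-DKO, G9a;Setdb1-DKO with G9a-KO and QKO with G9a;Suv39h1/2-TKO, in each table. These 4 pairs are called line pairs here. Every other comparison of genotypes crosses line codes, so the genotype and a difference between lines cannot be told apart in it. Every Setdb1-deficient library is marked OHT and every other library NT, 2 abbreviations that the labels do not spell out, so a treatment that OHT may stand for and the loss of Setdb1 cannot be told apart. Dux-KO QKO cells have a line code of their own, and this limit covers the loss of Dux as well. Nothing in the labels calls the 2 libraries of a group separate cultures, so p-values measure only the spread between these samples.

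TPM values keep no read totals, so depth is unknown. Between 11855 and 13274 genes reached 1 TPM per library in the first table, with the 2 highest counts in Dux-KO QKO, and between 11742 and 12690 in the second. The targeted genes followed the labels in part: Setdb1 had 19.8 to 36.5 TPM in the Setdb1-deficient libraries of the first table and 41.4 to 53.2 TPM in the others, Ehmt2 had 7.38 to 30.2 TPM in libraries without G9a and 82.5 to 104 TPM in the others, and the ranges of Suv39h1 and Suv39h2 overlapped between libraries labelled as lacking them and the rest. Dux was listed at 0 in both Dux-KO QKO libraries, against 25.7 and 21.8 TPM in QKO libraries and 0.971 and 1.15 TPM in control libraries, with the reservation that its tandem copies share reads. Of the 32 libraries of the second table, 6 stood apart by high levels of small nucleolar RNA host genes (a mean log2(TPM + 1) above 4, named in the paragraph on genotypes without doxycycline), and the results there were repeated without them. All 18 libraries of the first table lay above that level.

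The label of trophoblast transcription factors was borne out only in part by the levels of the factors. Cdx2, the factor that defines the trophectoderm, lay between 0 and 1.49 TPM in the first table and reached 1 TPM in 1 of 18 libraries, a Setdb1-KO library. In the second table it lay between 0 and 0.592 TPM in the 32 libraries. Tfap2a, an AP-2 factor, lay between 0.146 and 0.818 TPM in the first table and between 0.170 and 0.966 TPM in the second. With the filter lifted, neither gene was called in any of the 15 comparisons of the first table or the 23 of the second. A gene below 1 TPM in every library cannot reach a difference of 1 on the log2(TPM + 1) scale. The absence of a call was therefore fixed in advance for Tfap2a in both tables and for Cdx2 in the second. Both genes had adjusted p-values below 0.05 with differences below 1 on that scale, which understates changes at such levels. Tfap2a had 0.818 and 0.810 TPM in Dux-KO QKO libraries, against 0.146 and 0.195 TPM in control libraries, a log2 difference of 0.63 (limma adjusted p = 6.24e-05). Cdx2 had 0 and 0.317 TPM in Dux-KO QKO libraries, against 0.648 and 0.647 TPM in control libraries, a log2 difference of -0.52 (limma adjusted p = 0.00884). Such an adjusted p was found for Tfap2a in 4 comparisons of the first table and none of the second, and for Cdx2 in 3 of the first and 2 of the second, all at levels below 1 TPM. Of 15 other trophoblast factors listed, Elf5, a defining factor of trophoblast stem cells, and Tfap2b stayed below 1 TPM in every library of both tables. Of 18 genes of later placental cells, 9 did so in each table, among them Tpbpa and Prl3d1, markers of spongiotrophoblast and giant cells. In these cells the set is therefore described gene by gene and not as a trophoblast program.

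On the TPM scale, which is per transcript length, Tfap2c, Krt8, Krt18 and Cldn4 were the abundant members. In the first table Tfap2c ranged over libraries between 7.88 and 36.2 TPM, Krt8 between 8.03 and 61.8 TPM, Krt18 between 2.63 and 43.0 TPM and Cldn4 between 6.32 and 51.6 TPM. Eomes ranged between 4.02 and 7.98 TPM, Krt7 between 0.0443 and 7.66 TPM, and Hand1 between 0.224 and 4.86 TPM. Eomes had the narrowest range of the tested genes, with a highest level 1.98 times its lowest, and Krt7 and Hand1, which lay below 1 TPM at their low end, had the widest in proportion. Krt7 reached 1 TPM in 6 of the 18 libraries, all of them Setdb1-deficient. It passed the filter only through groups in which it was high, so its calls higher in those groups are no separate support. Krt8 has near-identical pseudogene copies elsewhere in the genome, and reads that fit them as well make its level uncertain to that extent.

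**Figure D1:**
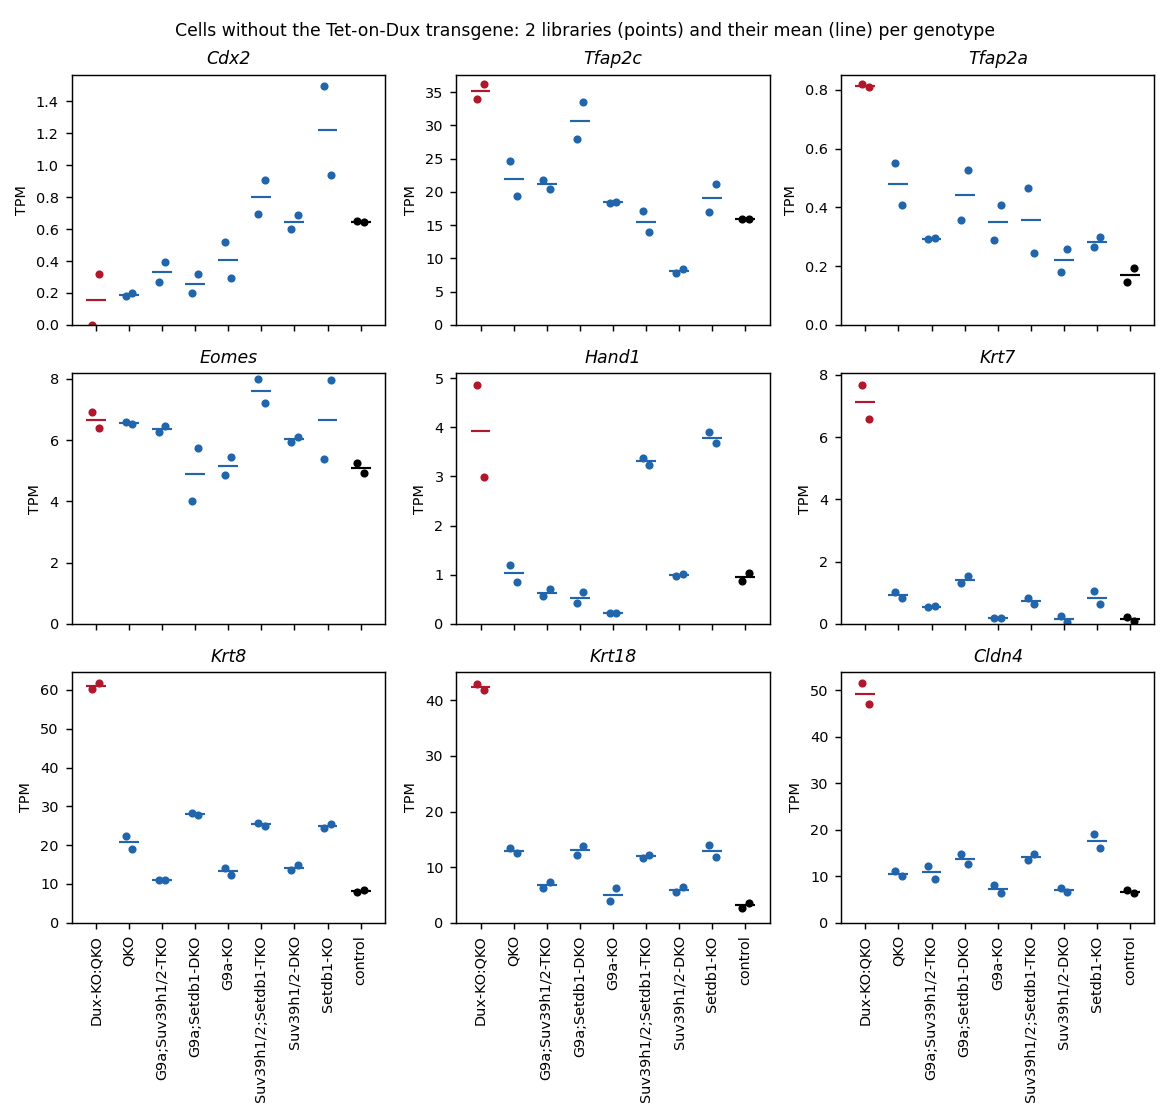
Level of each of the 9 genes in the first table (TPM, linear axis starting at 0) by genotype, with Dux-KO QKO at the left and control at the right. Points are the 2 libraries and short lines the group mean. Krt7, Krt8, Krt18 and Cldn4 are highest in Dux-KO QKO, where Krt8 stands at 60.3 and 61.8 TPM against 8.03 and 8.49 TPM in control, while Cdx2 and Tfap2a stay near or below 1 TPM.

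In the RefSeq sequences of build GRCm38.p6, 7 of the 9 genes had a promoter window, taken as 250 bases before to 50 bases after the annotated start; none was matched for Tfap2c and Hand1. The 4 windows of the epithelial genes are printed because all 4 genes were called higher in Dux-KO QKO cells against QKO and control cells, and in QKO cells against control cells of the second table. In the other comparisons that follow at most 3 of them were. Each is given 5′ to 3′ on the gene's own strand, and capitals mark matches, on either strand, to an AP-1 motif (TGANTCA), an AP-2 motif (GCCNNNGGC), a GC box (GGGCGG) or a TATA motif (TATAAA). Positions count bases from the annotated start, with negative numbers before it. The windows are chr15:102004293-102004592 on the minus strand for Krt8, chr15:102027966-102028265 on the plus strand for Krt18, chr15:101412153-101412452 on the plus strand for Krt7 and chr5:134946885-134947184 on the minus strand for Cldn4. For Krt8, Krt18 and Krt7 the RefSeq start lies inside the GENCODE M21 gene, so the windows are those of one annotated start.
Krt8: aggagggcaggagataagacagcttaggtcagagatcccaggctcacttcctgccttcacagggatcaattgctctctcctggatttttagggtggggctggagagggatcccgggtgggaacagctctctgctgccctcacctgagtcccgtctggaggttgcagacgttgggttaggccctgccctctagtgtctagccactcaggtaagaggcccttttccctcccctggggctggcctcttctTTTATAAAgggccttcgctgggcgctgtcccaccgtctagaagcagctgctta
Krt18: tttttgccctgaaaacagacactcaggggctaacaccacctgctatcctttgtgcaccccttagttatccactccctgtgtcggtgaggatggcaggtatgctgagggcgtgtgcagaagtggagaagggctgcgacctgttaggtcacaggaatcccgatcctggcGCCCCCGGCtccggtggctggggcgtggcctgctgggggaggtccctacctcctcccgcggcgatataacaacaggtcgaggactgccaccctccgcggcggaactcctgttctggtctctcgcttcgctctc
Krt7: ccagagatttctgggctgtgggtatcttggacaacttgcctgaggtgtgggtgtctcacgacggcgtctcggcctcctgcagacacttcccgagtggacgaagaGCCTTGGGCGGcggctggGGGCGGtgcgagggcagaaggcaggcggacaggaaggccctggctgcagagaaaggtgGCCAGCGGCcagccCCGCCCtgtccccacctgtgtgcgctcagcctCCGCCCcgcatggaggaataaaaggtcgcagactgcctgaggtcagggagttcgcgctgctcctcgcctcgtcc
Cldn4: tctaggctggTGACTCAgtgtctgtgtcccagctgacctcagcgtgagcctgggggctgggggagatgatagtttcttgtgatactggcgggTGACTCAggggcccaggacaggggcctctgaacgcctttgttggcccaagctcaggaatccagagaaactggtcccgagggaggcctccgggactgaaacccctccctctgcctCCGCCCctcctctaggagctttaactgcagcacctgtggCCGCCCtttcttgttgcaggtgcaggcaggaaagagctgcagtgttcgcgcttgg
The windows hold different letters rather than a motif common to all 4. Krt8 has a pair of overlapping TATA matches at -3 and -1 and none of the other motifs. Krt18 has an AP-2 match at -83. Krt7 has AP-2 matches at -146 and -70 and GC boxes at -141, -128, -56 and -24, of which the one at -141 overlaps an AP-2 match. Cldn4 has AP-1 matches at -240 and -158 and GC boxes at -44 and -5. Among 32851 promoter windows of the same length, 7.81% hold the AP-1 motif, 16.6% the AP-2 motif, 35.7% the GC box and 13.6% the TATA motif. A TEAD motif (GGAATG), which 14.7% of windows hold, was absent from the windows of these 4 genes and from those of Cdx2, Tfap2a and Eomes, while Cdx2 had an AP-2 match at -16. The G and C share was 58.0% in Krt8, 61.3% in Krt18, 66.3% in Krt7 and 61.0% in Cldn4, against a median of 52.7% over all windows. A match is a description of the letters and not a site of binding.

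Loss of Setdb1 in otherwise unmodified cells asks whether these genes respond to that enzyme alone. The keratins 8 and 18, claudin 4 and the factor Hand1 rose at least 2-fold in Setdb1-KO cells, while Tfap2c and Eomes did not pass the test. In bulk RNA, fewer cells of a type and less RNA per cell cannot be told apart, here and below. Krt8 had 24.3 and 25.3 TPM in Setdb1-KO libraries, against 8.03 and 8.49 TPM in control libraries. Krt18 had 13.9 and 11.8 TPM in Setdb1-KO libraries, against 2.63 and 3.62 TPM in control libraries. Cldn4 had 19.2 and 16.1 TPM in Setdb1-KO libraries, against 6.98 and 6.32 TPM in control libraries. For all 3 genes both Setdb1-KO libraries lay above both control libraries by more than the gap within either pair. Hand1 had 3.90 and 3.69 TPM in Setdb1-KO libraries, against 0.876 and 1.03 TPM in control libraries, again with no overlap. On the log2(TPM + 1) scale, which understates changes of low genes, the differences with their standard errors were 1.48 ± 0.11 for Krt8, 1.76 ± 0.17 for Krt18, 1.28 ± 0.15 for Cldn4 and 1.297 ± 0.16 for Hand1. The limma adjusted p-values, over all 13862 genes tested, were 1.05e-07 for Krt8, 2.93e-06 for Krt18, 1.53e-05 for Cldn4 and 2.71e-05 for Hand1. A gene was called where the adjusted p was below 0.05 and the log2 difference at least 1 in size, and 4.12% of all tested genes were called higher in this comparison. Krt8, Krt18, Cldn4 and Hand1 made 4 of the 7 tested members called higher, and none was called lower. The median log2 difference of the 7 was 1.28, beside -0.12 over all genes.

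The other 3 tested members stayed short of a call in Setdb1-KO cells. Krt7 had 1.06 and 0.624 TPM in Setdb1-KO libraries, against 0.216 and 0.0875 TPM in control libraries, a log2 difference of 0.67 (limma adjusted p = 0.00253) that is short of 2-fold on this scale. Tfap2c had 16.9 and 21.1 TPM in Setdb1-KO libraries, against 15.92 and 15.98 TPM in control libraries, with adjusted p = 0.229 in limma. Eomes had 5.37 and 7.96 TPM in Setdb1-KO libraries, against 5.25 and 4.93 TPM in control libraries, with adjusted p = 0.151 in limma. Only 1 of the 2 Setdb1-KO libraries stood clearly above control for Tfap2c and for Eomes.

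Lists of related genes moved in part with the called members in Setdb1-KO cells, where 4.12% of all genes were called higher and 2.16% lower. Of 23 tested genes of epithelial junctions and keratins other than the members, 4 were called higher in Setdb1-KO cells, among them the adhesion gene Epcam (log2 difference 1.64) and the epithelial factor Grhl2 (1.17), and 2 lower, the keratin Krt42 (-1.35) and the desmosomal cadherin Dsg2 (-1.10). Of 12 tested trophoblast factors none was called higher and 2 were lower, Sox21 (-1.87) and Gata2 (-1.27). Of 9 tested placental genes 4 were higher, namely Mmp9 (1.64), Rhox6 (1.48), Gcm1 (1.45), a factor of labyrinth syncytiotrophoblast, and S100a6 (1.29). Of 13 pluripotency genes 3 were lower (Prdm14 at -1.38, Klf4 at -1.31 and Nr0b1 at -1.22). Primitive endoderm also makes keratins 8 and 18, and 3 of its 16 tested markers were called higher; their summed level was 511 and 632 TPM in Setdb1-KO libraries, against 466 and 458 TPM in control libraries, and their part in the result was not tested.

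The same question was asked in lines that already lacked Suv39h1 and Suv39h2, or G9a, or all 3. In Suv39h1/2;Setdb1-TKO cells Hand1 alone was called against Suv39h1/2-DKO cells. It had 3.38 and 3.24 TPM in Suv39h1/2;Setdb1-TKO libraries, against 0.974 and 1.01 TPM in Suv39h1/2-DKO libraries, a log2 difference of 1.11 ± 0.16 (limma adjusted p = 0.000103) and 1 of 7 members beside 4.65% of all genes. Krt8 had 25.7 and 24.9 TPM in Suv39h1/2;Setdb1-TKO libraries, against 13.5 and 14.9 TPM in Suv39h1/2-DKO libraries, and Krt18 had 11.7 and 12.2 TPM against 5.51 and 6.43 TPM in the same order. Neither pair of libraries overlapped, and the log2 differences of 0.79 for Krt8 and 0.90 for Krt18 had limma adjusted p-values of 6.54e-05 and 0.00127 but were short of 2-fold. Cldn4 and Tfap2c differed by 0.91 and 0.85 in that comparison, with limma adjusted p-values of 0.000335 and 0.000434, also without a call.

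In G9a;Setdb1-DKO cells 3 keratins were called against G9a-KO cells, 3 of 7 members beside 4.62% of all genes. Krt7 among them passed the filter only through Setdb1-deficient libraries, these included. Its call here and against control cells is therefore no separate support. Krt8 had 28.3 and 27.7 TPM in G9a;Setdb1-DKO libraries, against 14.1 and 12.4 TPM in G9a-KO libraries. Krt18 had 12.3 and 13.9 TPM in G9a;Setdb1-DKO libraries, against 3.90 and 6.17 TPM in G9a-KO libraries. Krt7 had 1.31 and 1.53 TPM in G9a;Setdb1-DKO libraries, against 0.1844 and 0.1844 TPM in G9a-KO libraries. The log2 differences were 1.03 ± 0.11 for Krt8, 1.24 ± 0.17 for Krt18 and 1.03 ± 0.14 for Krt7, with limma adjusted p-values of 6.54e-06, 9.81e-05 and 9.61e-05. All 3 lie close to the 2-fold line: Krt8 fell below it, at 0.95, without G9a-KO replicate 2, Krt18, at 0.97, without G9a-KO replicate 1, and Krt7, at 0.97, without G9a;Setdb1-DKO replicate 2. Hand1 had 0.419 and 0.641 TPM in G9a;Setdb1-DKO libraries, against 0.2245 and 0.2236 TPM in G9a-KO libraries, and was not called (adjusted p = 0.16 in limma).

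In QKO cells against G9a;Suv39h1/2-TKO cells none of the 7 members was called higher by limma, although 3 had an unadjusted p below 0.05, beside 6.45% of all genes called higher. Krt8 had 22.4 and 19.0 TPM in QKO libraries, against 11.0 and 10.9 TPM in G9a;Suv39h1/2-TKO libraries. Krt18 had 13.4 and 12.5 TPM in QKO libraries, against 6.19 and 7.35 TPM in G9a;Suv39h1/2-TKO libraries. Both differed by 0.85 on the log2 scale with no overlap of libraries, at limma adjusted p-values of 2.17e-05 and 0.00129. Cldn4 had 11.1 and 10.0004 TPM in QKO libraries, against 12.2 and 9.51 TPM in G9a;Suv39h1/2-TKO libraries, which overlapped.

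Whether the response to Setdb1 loss differs between lines was tested directly as the difference between the response of a line and that of otherwise unmodified cells. For the G9a;Suv39h1/2-TKO line 1 of 7 members was called, beside 5.48% of all genes called in either direction. That member was Cldn4, at -1.31 ± 0.21 (limma adjusted p = 0.00079). Hand1 (-0.99 ± 0.23, limma adjusted p = 0.00918; -1.06 and called after rescaling by median ratios), Krt18 (-0.91 ± 0.24, adjusted p = 0.0239) and Krt8 (-0.63 ± 0.15, adjusted p = 0.0138) also had a smaller response in the G9a;Suv39h1/2-TKO line, by less than 2-fold. Hand1 reached the 2-fold line without control replicate 2 (-1.05), Setdb1-KO replicate 2 (-1.02), G9a;Suv39h1/2-TKO replicate 1 (-1.05) or QKO replicate 1 (-1.12). Krt18 reached it without control replicate 2 (-1.08), Setdb1-KO replicate 2 (-1.02) or G9a;Suv39h1/2-TKO replicate 1 (-1.02). For the G9a-KO line none of the 7 was called by limma beside 4.18% of all genes, and 3 had an unadjusted p below 0.05. Hand1 came nearest there, at -0.98 ± 0.23 (limma adjusted p = 0.0124), and was called without control replicate 2 (-1.03), Setdb1-KO replicate 2 (-1.01) or G9a;Setdb1-DKO replicate 2 (-1.08) or after rescaling by median ratios (-1.09). For the Suv39h1/2-DKO line none was called by limma beside 0.166% of all genes, with an unadjusted p below 0.05 for 3 of 7.

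Against the common control libraries, which these comparisons share, the keratins stood higher in each line without Setdb1. In Suv39h1/2;Setdb1-TKO cells 3 of 7 members were called higher, beside 4.74% of all genes: Krt8 at 1.51, Krt18 at 1.66 and Hand1 at 1.14, with limma adjusted p-values of 9.03e-08, 4.61e-06 and 7.61e-05. Cldn4, at 0.98 there, was called without control replicate 1 or without Suv39h1/2;Setdb1-TKO replicate 1 (1.04 in both), and after rescaling by median ratios (1.07). In G9a;Setdb1-DKO cells 3 of 7 were called higher, beside 9.58%: Krt8 at 1.65, Krt18 at 1.78 and Krt7 at 1.07, with limma adjusted p-values of 1.17e-08, 8.89e-07 and 2.2e-05. Krt7 fell to 0.99 without control replicate 2, Cldn4 (0.95) passed 2-fold without control replicate 1 (1.01) or G9a;Setdb1-DKO replicate 2 (1.05) or after that rescaling (1.04), and Tfap2c (0.90) without G9a;Setdb1-DKO replicate 1 (1.02). In QKO cells 2 of 7 were called higher, beside 10.1%: Krt8 at 1.22 and Krt18 at 1.77, with limma adjusted p-values of 2.96e-07 and 8.92e-07.

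In the lines that kept Setdb1 no member was called in either direction by limma. In Suv39h1/2-DKO cells 0.137% of all genes were called higher and 0.404% lower, and 3 of 7 members had an unadjusted p below 0.05, namely Krt8 (0.71, limma adjusted p = 0.00198), Krt18 (0.77, adjusted p = 0.0325) and Tfap2c (-0.90, adjusted p = 0.00334). Tfap2c had 7.88 and 8.36 TPM in Suv39h1/2-DKO libraries, against 15.92 and 15.98 TPM in control libraries, the lowest levels of this factor in the table. In G9a-KO cells 5.52% of all genes were called higher and 3.74% lower, and 3 of 7 members had an unadjusted p below 0.05: Krt8 (0.62, limma adjusted p = 0.000415), Krt18 (0.54, adjusted p = 0.0257) and Hand1 (-0.67, adjusted p = 0.00418). Hand1 had 0.2245 and 0.2236 TPM in G9a-KO libraries, against 0.876 and 1.03 TPM in control libraries. From these control levels even a complete loss would stay short of 1 on the log2(TPM + 1) scale, so Hand1 could not be called lower. The same holds for Krt7, with a control mean of 0.152 TPM. With a pseudocount of 0.1 Hand1 was at -1.69 in G9a-KO cells and was called lower. In G9a;Suv39h1/2-TKO cells 4.65% of all genes were called higher and 2.07% lower, and 5 of 7 members had an unadjusted p below 0.05, with Krt18 at 0.92 (limma adjusted p = 0.00101) called without control replicate 2 (1.10) or G9a;Suv39h1/2-TKO replicate 1 (1.03).

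Dux-KO QKO cells had the highest mean levels of Krt7, Krt8, Krt18, Cldn4 and Tfap2c among the 9 genotypes of the first table. Against QKO cells, which differ from them by the loss of Dux and by the line, 5 of 7 members were called higher and none lower. Cldn4 had 51.6 and 46.9 TPM in Dux-KO QKO libraries, against 11.1 and 10.0004 TPM in QKO libraries. Krt8 had 60.3 and 61.8 TPM in Dux-KO QKO libraries, against 22.4 and 19.0 TPM in QKO libraries. Krt18 had 43.0 and 41.9 TPM in Dux-KO QKO libraries, against 13.4 and 12.5 TPM in QKO libraries. For all 3 the lower Dux-KO QKO library lay far above the higher QKO library. Krt7 had 7.66 and 6.58 TPM in Dux-KO QKO libraries, against 1.03 and 0.840 TPM in QKO libraries. Its calls in Dux-KO QKO cells, against QKO and against control cells, carry the limit of the filter given above. Hand1 had 4.86 and 3.00 TPM in Dux-KO QKO libraries, against 1.201 and 0.851 TPM in QKO libraries, with the wider spread of the 5 genes and still no overlap.

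The log2 differences between Dux-KO QKO and QKO cells were 2.12 ± 0.15 for Cldn4, 2.07 ± 0.14 for Krt7, 1.64 ± 0.17 for Krt18, 1.52 ± 0.11 for Krt8 and 1.26 ± 0.16 for Hand1. Their limma adjusted p-values were 7.48e-08 for Cldn4, 6.63e-08 for Krt7, 6.49e-06 for Krt18, 9.22e-08 for Krt8 and 3.4e-05 for Hand1. Of all genes, 4.71% were called higher. The median of the 7 members was 1.52, beside 0.22 over all genes, a shift that became 0.04 when the columns were rescaled by median ratios. Hand1 fell to 0.99 without Dux-KO QKO replicate 1. Tfap2c had 34.0 and 36.2 TPM in Dux-KO QKO libraries, against 24.6 and 19.3 TPM in QKO libraries, a log2 difference of 0.66 (limma adjusted p = 0.00223) short of 2-fold. Eomes had 6.92 and 6.40 TPM in Dux-KO QKO libraries, against 6.60 and 6.53 TPM in QKO libraries, and the 4 values lay within one narrow range.

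Against control cells 6 of 7 members were called higher in Dux-KO QKO cells, beside 16.8% of all genes. The log2 differences were 3.41 for Krt18, 2.82 for Krt7, 2.75 for Krt8, 2.72 for Cldn4, 1.31 for Hand1 and 1.09 for Tfap2c, and Eomes differed by 0.33 (limma adjusted p = 0.0977). Limma adjusted p-values of the 6 lay between 3.19e-11 for Krt8 and 1.28e-05 for Tfap2c.

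**Figure D2:**
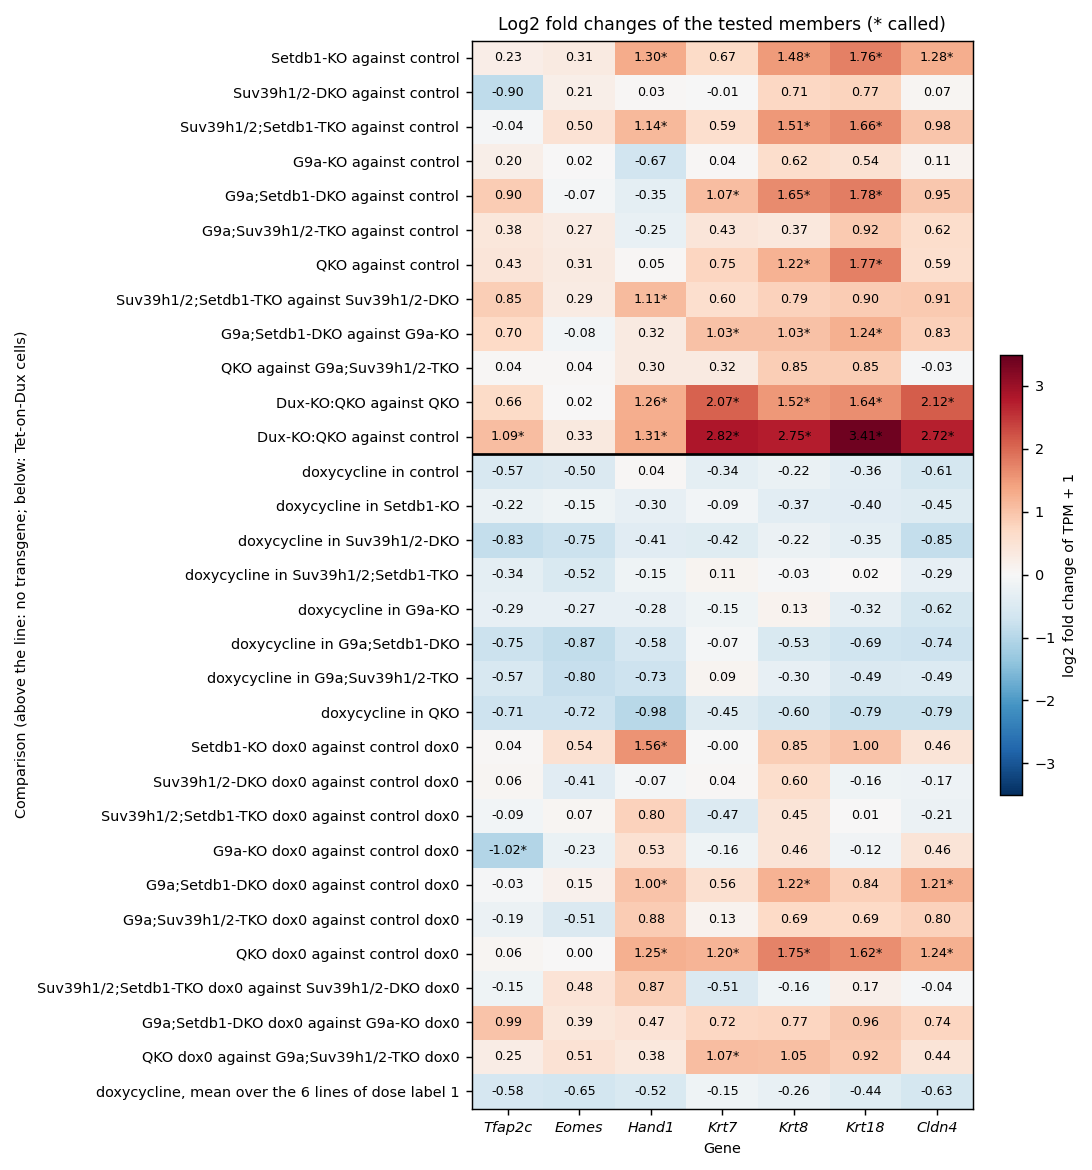
Log2 differences, on the log2(TPM + 1) scale, of the 7 tested genes (columns) in the comparisons of both tables (rows, first table above the line), with an asterisk where a gene was called (limma adjusted p below 0.05 and at least 2-fold). Krt8, Krt18, Krt7 and Cldn4 reach 2.75, 3.41, 2.82 and 2.72 in Dux-KO QKO against control, while Eomes carries no asterisk in any row.

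The order of the genotypes differed between the genes. For Krt8 the group means were 61.1 ± 1.07 TPM (SD, n = 2 here and below) in Dux-KO QKO, 28.0 ± 0.454 TPM in G9a;Setdb1-DKO, 25.3 ± 0.581 TPM in Suv39h1/2;Setdb1-TKO, 24.8 ± 0.700 TPM in Setdb1-KO, 20.7 ± 2.40 TPM in QKO, 14.2 ± 0.997 TPM in Suv39h1/2-DKO, 13.2 ± 1.204 TPM in G9a-KO, 11.0 ± 0.0401 TPM in G9a;Suv39h1/2-TKO and 8.26 ± 0.328 TPM in control. Libraries of Suv39h1/2;Setdb1-TKO and Setdb1-KO overlapped, as did those of Suv39h1/2-DKO and G9a-KO, and the other neighbours in this order did not. All 5 Setdb1-deficient groups thus stood above the 4 groups that kept Setdb1. Krt18 had the same split, with 42.5 ± 0.767 TPM in Dux-KO QKO, 11.97 to 13.1 TPM in the other 4 Setdb1-deficient groups, whose libraries overlapped with their neighbours, 5.04 to 6.77 TPM in the 3 mutants that kept Setdb1 and 3.12 ± 0.699 TPM in control. Cldn4 followed with 49.3 ± 3.28 TPM in Dux-KO QKO, 17.6 ± 2.20 TPM in Setdb1-KO, 14.1 ± 0.914 TPM in Suv39h1/2;Setdb1-TKO and 13.8 ± 1.54 TPM in G9a;Setdb1-DKO, but G9a;Suv39h1/2-TKO (10.8 ± 1.88 TPM) and QKO (10.5 ± 0.758 TPM) overlapped, and G9a-KO, Suv39h1/2-DKO and control lay together between 6.65 and 7.31 TPM.

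Hand1 had another order, with high levels in 3 groups. It had 3.93 ± 1.32 TPM in Dux-KO QKO, 3.79 ± 0.151 TPM in Setdb1-KO and 3.31 ± 0.0952 TPM in Suv39h1/2;Setdb1-TKO, with the Setdb1-KO and Suv39h1/2;Setdb1-TKO libraries lying between the Dux-KO QKO ones, then 1.03 ± 0.247 TPM in QKO, whose libraries overlapped with those of Suv39h1/2-DKO and control (0.952 ± 0.107 TPM), and 0.224 TPM in G9a-KO at the low end. Tfap2c ran between 35.1 ± 1.55 TPM in Dux-KO QKO and 8.12 ± 0.341 TPM in Suv39h1/2-DKO, with 30.7 ± 3.84 TPM in G9a;Setdb1-DKO and 15.9 ± 0.0465 TPM in control. Eomes, the least variable of the tested genes, had group means between 4.88 and 7.59 TPM, and the libraries of most neighbouring groups overlapped.

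The 3 keratins lie in one cluster on chromosome 15. In GENCODE M21 on GRCm38, Krt8 spans chr15:101996698-102004482 on the minus strand and Krt18 chr15:102028180-102032027 on the plus strand, so that their starts face away from each other 23.7 kb apart, and Krt7, at chr15:101411043-101430313 on the plus strand, starts 617.1 kb from Krt18. Type II keratin genes fill the interval, while Krt18 is the only type I gene of the cluster. Within 1000 kb of the Krt18 start 78 genes had rows and 38 were tested, and of 24 keratin genes with rows 5 were tested (Krt7, Krt75, Krt5, Krt8 and Krt18). The window was placed around Krt18 and holds the members Krt7, Krt8 and Krt18, whose calls are given above, so its counts are no separate support for them. In Dux-KO QKO cells against QKO cells, 4 of the 38 were called higher and none lower, beside 4.71% and 1.83% of all tested genes. They were the members Krt7, Krt8 and Krt18, and Krt5 (1.91, a keratin of stratified epithelia) as the only other gene. In Setdb1-KO cells against control cells 2 were higher, the members Krt8 and Krt18, and 1 was lower, Fignl2 (-1.77), beside 4.12% and 2.16% of all genes. In Dux-KO QKO cells against control cells 8 were higher, the 5 tested keratins with Krt5 at 3.05 and Krt75 at 1.49, and Prr13 (1.32), Calcoco1 (1.15) and Hoxc13 (2.10), and 2 were lower, Fignl2 (-2.19) and Grasp (-1.44), beside 16.8% and 4.31% of all genes. Krt5 and Krt7 passed the filter only through Setdb1-deficient libraries. Their means were 0.0337 and 0.152 TPM in control and 7.71 and 7.12 TPM in Dux-KO QKO. That every tested keratin was higher is thus in part a result of the filter. Eif4b, the nearest tested gene beyond Krt18 at 45.6 kb, was called in none of the 3. Within this window keratins other than the members stayed at or below 9.23 TPM in the first table and 2.53 TPM in the second. The other members lie elsewhere: Cldn4 at chr5:134945119-134946934 and Cdx2 at chr5:147300805-147307270 on the minus strand, Tfap2c at chr2:172549593-172558622 and Eomes at chr9:118478212-118486132 on the plus strand, and Tfap2a at chr13:40715302-40738376 and Hand1 at chr11:57828705-57832818 on the minus strand.

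**Figure D3:**
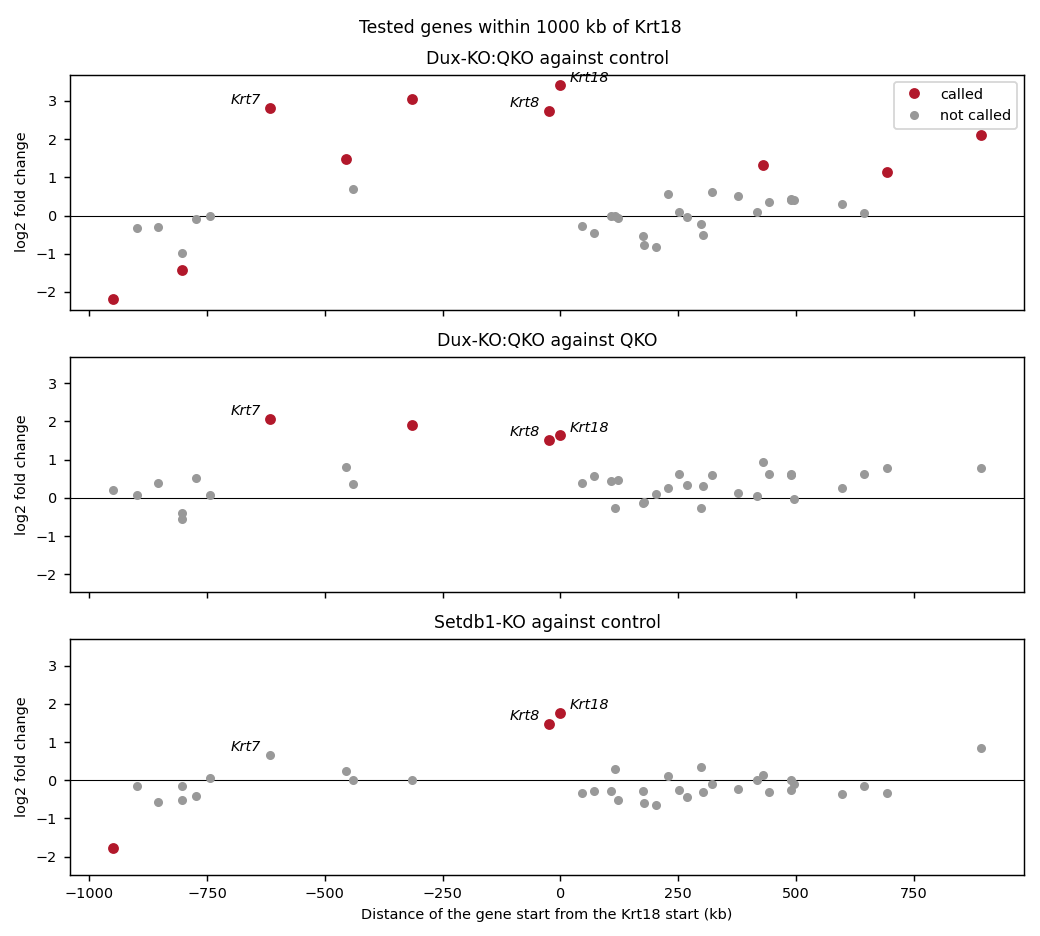
Log2 difference of each tested gene within 1000 kb of the Krt18 start against its distance from that start (kb), in 3 panels for Dux-KO QKO against control, Dux-KO QKO against QKO and Setdb1-KO against control. Red points are called genes and grey points the others. The called genes of the middle panel are 4 keratins, and those of the lowest are Krt8, Krt18 and Fignl2, which was lower at -1.77.

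Other genes of the lists were also called in Dux-KO QKO cells. Of all genes, 4.71% were called higher and 1.83% lower against QKO cells, and 16.8% and 4.31% against control cells. Against QKO cells 5 of 12 tested trophoblast factors were called higher and none lower, with Msx2 (1.67), Id2 (1.48), Fgfr2 (1.37), the receptor through which FGF4 maintains trophoblast stem cells, and Tcf7l1 (1.23) at the head. Fgfr2 and Id2 were not particular to Dux-KO QKO cells. Fgfr2 had a mean of 8.86 TPM there and 9.17 TPM in G9a;Suv39h1/2-TKO, and Id2 had 23.6 TPM there and 22.0 TPM in G9a-KO. Msx2 and Tcf7l1 had their highest means in Dux-KO QKO, at 8.57 and 113 TPM. Tcf7l1 was already abundant in control embryonic stem cells, at a mean of 72.9 TPM, so it is not exclusive to trophoblast. Of 9 tested placental genes 3 were higher against QKO cells, namely S100a6 (1.99), Plac1 (1.10) and Rhox6 (1.04), though Rhox6 had a higher mean in G9a;Setdb1-DKO (11.6 TPM) than in Dux-KO QKO (9.24 TPM). Of 23 other epithelial genes 5 were higher and none lower, among them Krt5 (1.91), Krt19 (1.89), the membrane protease gene St14 (1.22) and Cldn7 (1.03), and the median of the list was 0.83 beside 0.22 over all genes. None of 8 mesenchymal genes and none of 13 pluripotency genes was called by limma in that comparison. Against control cells 2 of the 8 mesenchymal genes were higher, the factor Snai1 (2.57) and the fibronectin gene Fn1 (1.397), as were 2 of the 13 pluripotency genes, Tbx3 (1.63) and Dppa5a (1.07), and none of either list was lower. In that comparison 13 of the 23 epithelial genes were higher, led by the desmosomal Pkp2 (3.97), Grhl2 (3.95), Krt5 (3.05) and the splicing regulator Esrp1 (2.95), and 6 of 12 trophoblast factors were higher and 2 lower, with Id2 at 2.27, Msx2 at 2.09, Ascl2 at 1.57 and Sox21 at -1.77.

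Markers of primitive endoderm, the other extraembryonic lineage of the blastocyst, moved with the members in Dux-KO QKO cells but not across the genotypes as a whole. Of 16 such markers 13 were called higher in Dux-KO QKO cells against QKO cells, with Col4a2 at 1.70, Lama1 at 1.60, Foxa2 at 1.56 and Gata4 at 1.56, and 15 against control cells. Of all genes 4.71% and 16.8% were called higher in these comparisons. The summed level of the markers was 2164 and 2088 TPM in Dux-KO QKO libraries, against 906 and 690 TPM in QKO libraries and 466 and 458 TPM in control libraries, and none of the 16 lay below 1 TPM throughout. In G9a-KO cells all 16 were called higher against control cells, beside 5.52% of all genes, with a summed level of 2453 and 2073 TPM in G9a-KO libraries, while none of the 7 tested members was called there. Krt8 and Krt18 were still higher in G9a-KO cells, short of 2-fold, with means of 13.2 and 5.04 TPM. In control cells these means were 8.26 and 3.12 TPM. G9a;Suv39h1/2-TKO libraries likewise had 2329 and 1780 TPM of these markers and Krt8 at 11.0 and 10.9 TPM, with a Krt18 mean of 6.77 TPM, both above control. Setdb1-KO libraries had the opposite arrangement, with 511 and 632 TPM of the markers and Krt8 at 24.3 and 25.3 TPM. The part of primitive endoderm markers in the levels of Dux-KO QKO cells was not tested.

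**Figure D4:**
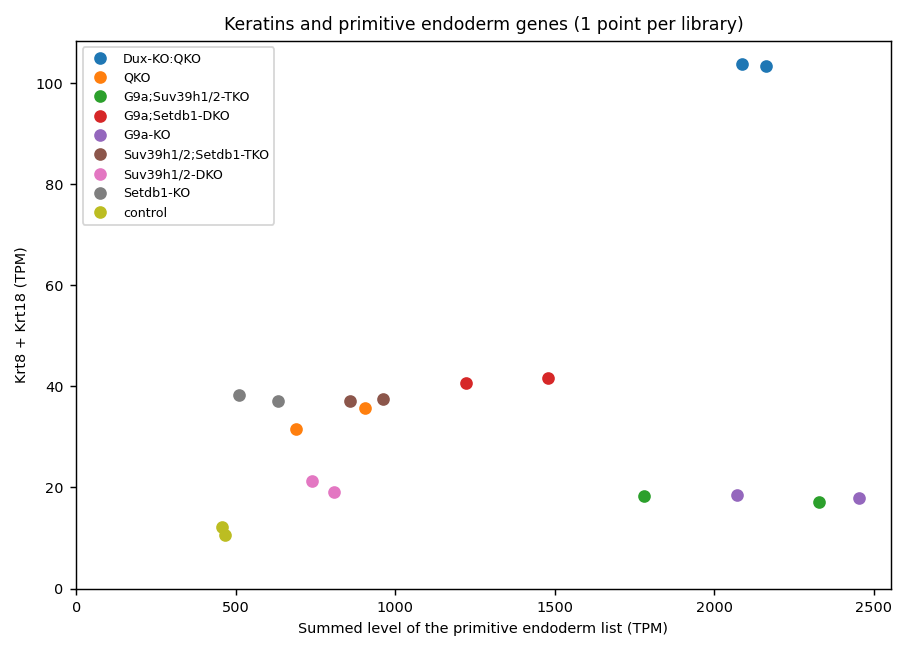
Sum of Krt8 and Krt18 (TPM) against the summed level of 16 primitive endoderm markers (TPM) in the first table, with 1 point per library. Dux-KO QKO libraries are high on both axes, at 2164 and 2088 TPM of the markers. G9a-KO and G9a;Suv39h1/2-TKO libraries are high for the markers and low for the keratins, though with higher mean Krt8 and Krt18 than control. Setdb1-KO libraries lie low for the markers and, for the keratins, between those and the Dux-KO QKO libraries.

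In the second table, whose cells carry the Tet-on-Dux transgene and lack endogenous Dux by their genotype field, the levels without doxycycline give the genotypes again. The 6 libraries with high small nucleolar RNA host genes were control replicate 1, Setdb1-KO replicate 2 and G9a;Setdb1-DKO replicate 2 without doxycycline, and Setdb1-KO replicate 2, G9a-KO replicate 2 and G9a;Setdb1-DKO replicate 2 with it. QKO cells had 5 of 7 members called higher against control cells, beside 6.59% of all genes. Krt8 had 69.8 and 48.8 TPM in QKO libraries, against 21.7 and 12.7 TPM in control libraries. Krt18 had 66.5 and 46.8 TPM in QKO libraries, against 20.0 and 15.3 TPM in control libraries. Cldn4 had 54.7 and 35.6 TPM in QKO libraries, against 17.8 and 18.4 TPM in control libraries. QKO replicate 1 was the higher of its pair for all 3 genes, and both QKO libraries lay above both control libraries. Krt7 had 5.34 and 3.62 TPM in QKO libraries, against 1.71 and 1.04 TPM in control libraries, and Hand1 had 7.003 and 4.84 TPM in QKO libraries, against 2.33 and 1.47 TPM in control libraries. The log2 differences were 1.75 ± 0.39 for Krt8, 1.62 ± 0.35 for Krt18, 1.25 ± 0.25 for Hand1, 1.24 ± 0.23 for Cldn4 and 1.202 ± 0.32 for Krt7, with limma adjusted p-values of 0.00169, 0.00122, 0.000542, 0.00024 and 0.00592. Without QKO replicate 1, Cldn4 was at 0.94 and Krt7 at 0.97, and without control replicate 2 Krt7 had adjusted p = 0.0636 in limma. Of 16 primitive endoderm markers 1 was called higher and 5 lower here, beside 6.59% and 7.42% of all genes. Their summed level went the other way from the members, at 548 and 686 TPM in QKO libraries, against 982 and 1119 TPM in control libraries.

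Eomes and Tfap2c did not follow the epithelial genes in QKO cells of the second table. Eomes had 12.5 and 13.4 TPM in QKO libraries, against 12.3 and 13.6 TPM in control libraries without doxycycline, and Tfap2c had 40.5 and 37.4 TPM in QKO libraries, against 43.7 and 31.9 TPM in control libraries. For both genes the 2 QKO values lay between the 2 control values. Of the other lists, 7 of 8 tested placental genes, 2 of 13 trophoblast factors and 4 of 25 epithelial genes were called higher and 1 epithelial gene lower. Of all genes 6.59% were called higher and 7.42% lower in this comparison.

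Other genotypes without doxycycline had fewer calls. In G9a;Setdb1-DKO cells 3 of 7 members were called higher against control cells, beside 7.35% of all genes. Cldn4 had 38.9 and 47.6 TPM in G9a;Setdb1-DKO libraries, against 17.8 and 18.4 TPM in control libraries (log2 difference 1.21 ± 0.23, limma adjusted p = 0.000336). Krt8 had 27.6 and 58.7 TPM in G9a;Setdb1-DKO libraries, against 21.7 and 12.7 TPM in control libraries, and its call (1.22 ± 0.39, limma adjusted p = 0.0207) was lost without G9a;Setdb1-DKO replicate 2 (0.69), which is one of the 6 libraries set apart above, without control replicate 2 (0.86) and without all 6 (adjusted p = 0.0824 in limma). Hand1 had 4.73 and 4.76 TPM in G9a;Setdb1-DKO libraries, against 2.33 and 1.47 TPM in control libraries (1.003 ± 0.25, limma adjusted p = 0.0038), on the 2-fold line and below it without control replicate 2 (0.79) or G9a;Setdb1-DKO replicate 2 (0.999). In Setdb1-KO cells only Hand1 was called, 1 of 7 beside 1.67%, with 7.69 and 7.27 TPM in Setdb1-KO libraries, against 2.33 and 1.47 TPM in control libraries (1.56 ± 0.25, limma adjusted p = 0.000475). Krt18, called in Setdb1-KO cells of the first table, had 35.3 and 36.6 TPM in Setdb1-KO libraries of the second, against 20.0 and 15.3 TPM in control libraries, with a log2 difference of 0.996 and adjusted p = 0.109 in limma. Control cells of the second table thus held more Krt18 and Krt8 than the control cells of the first, a comparison of levels across separately deposited tables that was not tested.

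In G9a-KO cells without doxycycline Tfap2c was the 1 member of 7 called lower, beside 4.91% of all genes called lower. It had 15.5 and 20.6 TPM in G9a-KO libraries, against 43.7 and 31.9 TPM in control libraries (log2 difference -1.02 ± 0.26, limma adjusted p = 0.00761). The value lay at -0.80 without control replicate 1 and -0.83 without G9a-KO replicate 1, at -0.87 after rescaling by median ratios and at -0.80 without the 6 libraries, none of which was a call. In Suv39h1/2-DKO cells none of the 7 was called by limma and none had an unadjusted p below 0.05, beside 0.239% of all genes called higher and 1.32% lower. In Suv39h1/2;Setdb1-TKO cells none was called by limma beside 1.15% higher and 2.34% lower, with 1 unadjusted p below 0.05 (Hand1 at 0.80, limma adjusted p = 0.0387). In G9a;Suv39h1/2-TKO cells none was called by limma beside 2.99% higher and 3.62% lower, with 2 unadjusted p-values below 0.05 and Hand1 at 0.88, called without control replicate 1 (1.09).

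Of the 4 line pairs of the second table without doxycycline, Setdb1-KO against control gave the call of Hand1 described above and the other 3 gave 1 call together. None of the 7 members was called by limma in Suv39h1/2;Setdb1-TKO cells against Suv39h1/2-DKO cells, beside 1.18% of all genes, with 1 unadjusted p below 0.05. None was called by limma in G9a;Setdb1-DKO cells against G9a-KO cells, beside 3.73%, with 4 unadjusted p-values below 0.05; Tfap2c at 0.99 (limma adjusted p = 0.0155) was called without G9a-KO replicate 2 (1.18) or G9a;Setdb1-DKO replicate 1 (1.03), and Krt18 at 0.96 was called without G9a-KO replicate 2 (1.38) and fell to 0.54 without G9a-KO replicate 1. In QKO cells against G9a;Suv39h1/2-TKO cells Krt7 was called, 1 of 7 beside 2.36%, with 5.34 and 3.62 TPM in QKO libraries, against 2.54 and 0.881 TPM in G9a;Suv39h1/2-TKO libraries (1.07 ± 0.32, limma adjusted p = 0.04). That call did not hold without G9a;Suv39h1/2-TKO replicate 2 (0.61) or QKO replicate 1 (0.84), nor without QKO replicate 2 (1.297, adjusted p = 0.0703 in limma).

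**Figure D5:**
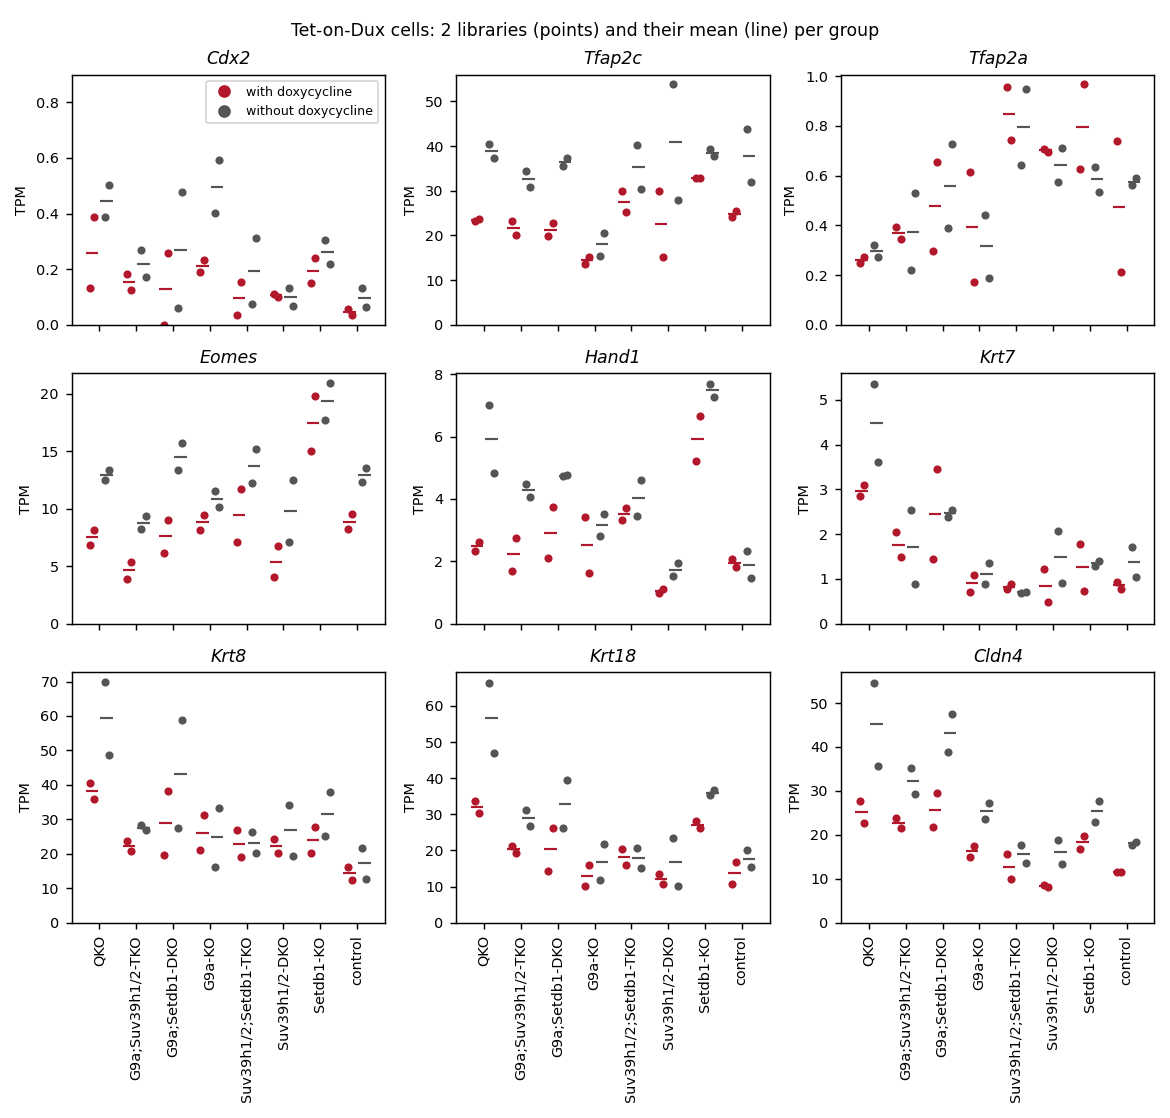
Level of each of the 9 genes in the second table (TPM, linear axis starting at 0) by genotype, with doxycycline at the left of each pair (red) and without it at the right (grey). Points are the 2 libraries and short lines the group mean. Cldn4, Tfap2c and Eomes have lower means with doxycycline in all 8 genotypes, and the highest level of Krt8 is 69.8 TPM in a QKO library without doxycycline.

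Doxycycline switched on the transgene, whose level was 19.3 to 71.5 TPM in libraries with doxycycline and 0.577 to 4.51 TPM in libraries without it. No member was called in either direction by limma in any of the 8 genotypes. The share of all genes called lower was itself small: 0.0% in control, Setdb1-KO, Suv39h1/2;Setdb1-TKO and G9a;Suv39h1/2-TKO cells, 0.0145% in G9a-KO cells, 0.0217% in Suv39h1/2-DKO cells, 0.0289% in QKO cells and 0.297% in G9a;Setdb1-DKO cells. Unadjusted p-values below 0.05 were found for 5 of 7 members in QKO, 4 in G9a;Suv39h1/2-TKO and in G9a;Setdb1-DKO, 1 in G9a-KO, 3 in Suv39h1/2-DKO and 2 in control cells, and for none in Suv39h1/2;Setdb1-TKO and Setdb1-KO cells.

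The differences nevertheless had one sign for 3 genes. The median over all genes was itself negative in all 8 genotypes, between -0.22 in G9a;Setdb1-DKO and -5.24e-05 in G9a-KO cells. In QKO cells that median was -0.21, and it became -0.02 after rescaling by median ratios. The values below are without that rescaling. Cldn4 had 27.7 and 22.8 TPM in QKO libraries with doxycycline, against 54.7 and 35.6 TPM in QKO libraries without it, and 11.6 and 11.4 TPM in control libraries with doxycycline, against 17.8 and 18.4 TPM in control libraries without it. Its log2 difference was negative in all 8 genotypes, between -0.85 in Suv39h1/2-DKO and -0.29 in Suv39h1/2;Setdb1-TKO cells. Tfap2c had 23.1 and 23.6 TPM in QKO libraries with doxycycline, against 40.5 and 37.4 TPM in QKO libraries without it, and its difference lay between -0.83 in Suv39h1/2-DKO and -0.22 in Setdb1-KO cells. Eomes had 6.85 and 8.15 TPM in QKO libraries with doxycycline, against 12.5 and 13.4 TPM in QKO libraries without it, and its difference lay between -0.87 in G9a;Setdb1-DKO and -0.15 in Setdb1-KO cells. In QKO cells the libraries with and without doxycycline did not overlap for any of the 3 genes. Hand1 had a negative difference in 7 of 8 genotypes, at most -0.98 in QKO cells, where it had 2.34 and 2.61 TPM with doxycycline, against 7.003 and 4.84 TPM without it. Tfap2c in Suv39h1/2-DKO cells had 30.1 and 15.2 TPM with doxycycline, against 54.0 and 28.0 TPM without it, which overlapped. Its difference of -0.83 turned on single libraries, with a call without the dose 0 replicate 2 (-1.29) or the dose 1 replicate 1 (-1.301) and values of -0.37 without the dose 0 replicate 1 and -0.36 without the dose 1 replicate 2.

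A mean response over the 6 genotypes of dose label 1 was computed after these values had been seen. Eomes differed by -0.65 ± 0.11 (limma adjusted p = 0.000205), Cldn4 by -0.63 ± 0.09 (adjusted p = 7.81e-05), Tfap2c by -0.58 ± 0.11 (adjusted p = 0.000654), Hand1 by -0.52 ± 0.10 (adjusted p = 0.00109) and Krt18 by -0.44 ± 0.14 (adjusted p = 0.0361). Krt8 (-0.26, limma adjusted p = 0.293) and Krt7 (-0.15, adjusted p = 0.485) did not pass. None reached 2-fold, where 0.00724% of all genes were called lower. At an adjusted p below 0.05 and any fold 5 of 7 members were lower, beside 17.2% of all genes. The median over all genes was -0.09 and became 0.00 after rescaling by median ratios. Eomes, Cldn4, Tfap2c and Hand1 kept an adjusted p below 0.05 under that rescaling, with Cldn4 at -0.51 and Tfap2c at -0.47, while Krt18 did not (-0.32, limma adjusted p = 0.185). Whether doxycycline acted differently by Setdb1 status was tested in the 4 line pairs: none of the 7 members was called by limma, none had an unadjusted p below 0.05 and 0.0% of all genes were called in each pair.

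Genes whose group means followed those of the members most closely in the first table are given as a description, by Pearson's r of mean log2(TPM + 1) over its 9 groups, with r over the 16 groups of the second table beside it. Krt14 was nearest to Krt7 (0.99 and 0.71), Ptk2b to Krt8 (0.98 and 0.28), Gnaz to Krt18 (0.99 and -0.33), Slc30a2 to Cldn4 (0.98 and 0.35), Slc1a3 to Eomes (0.94 and 0.24) and Ccdc86 to Tfap2c (0.95 and -0.20). Krt8 and Krt18 themselves had r = 0.97 over the 9 groups and 0.81 over the 16. Among the 3 nearest genes of each member were others that stayed closer in the second table, namely Gfer to Cldn4 (0.98 and 0.75), Lzic to Krt8 (0.97 and 0.68), Prosc to Krt18 (0.98 and 0.68) and Hipk1 to Eomes (0.92 and 0.63). The groups share libraries with every gene compared, and the genes nearest in the first table were picked from all 13862 tested.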

How the data were processed

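Polyadenylated RNA of 50 libraries of mouse embryonic stem cells was sequenced as 150 nt paired ends from stranded libraries, per the labels' protocols. STAR 2.7.10b, Bowtie2 2.3.4.1, RSEM 1.3.1, SAMtools 1.9 and the genome mm10 are named in the submitters' processing notes, without their roles. The deposited values are TPM per gene, as the authors computed them, in 2 tables with 18 and 32 libraries. TPM is relative to each library's own total, so a gene's value also moves with the rest of the library, and no interval from read depth can be given.

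Values were analysed as log2(TPM + 1). The filter kept genes that reached 1 TPM in 2 or more libraries of their table (13862 and 13817). Rows of the inducible transgene and a reporter were left out. Each table was fitted in one limma model (3.58.1, R 4.3.3) over all its groups, with a trend of variance on level and 9 and 16 degrees of freedom left over. Benjamini-Hochberg adjustment ran over every tested gene of a comparison. A call needed an adjusted p below 0.05 together with a log2 difference of 1 or more in size. Differences between responses were tested as interaction contrasts. The fit was tested on simulated data.

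The genes and lists were chosen with earlier results of these data known. All 9 genes were named in every comparison, and of each list up to 4 called genes of largest change. Alternatives were a pseudocount of 0.1, no filter, blocking on the replicate number, rescaling by median ratios, each library left out in turn and, in the second table, the 6 libraries of high small nucleolar RNA host genes left out or their class as a term. The mean response to doxycycline was added after the data had been seen. Positions come from GENCODE M21 on GRCm38, the same assembly as mm10, and promoter sequences from RefSeq.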

Additional observations from a re-analysis of the deposited data

Results flagged for a closer look

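In 5 cases the response of a gene to the loss of Setdb1 differed between lines at an adjusted p below 0.05, whatever the size, by the test of the difference itself (limma, adjusted over all genes tested). At that criterion 10.1% of all genes differed for the G9a-KO line and 13.2% for the G9a;Suv39h1/2-TKO line, and only Cldn4 of the 5 cases also reached 2-fold and was a call. Hand1 responded less in the G9a-KO line than in the otherwise unmodified line, by -0.98 on the log2 scale. Its means there were 0.224 TPM in G9a-KO and 0.530 TPM in G9a;Setdb1-DKO, levels at which the log2(TPM + 1) scale understates changes. In the G9a;Suv39h1/2-TKO line 4 genes responded less than in the otherwise unmodified line: Cldn4 by -1.31, Hand1 by -0.99, Krt18 by -0.91 and Krt8 by -0.63. Krt18 had like means in QKO (12.97 TPM) and Setdb1-KO (12.87 TPM), but a higher mean in G9a;Suv39h1/2-TKO (6.77 TPM) than in control (3.12 TPM). Hand1 was low in this line, at 0.636 TPM in G9a;Suv39h1/2-TKO and 1.03 TPM in QKO, and its value was -1.29 with a pseudocount of 0.1. The Setdb1-KO and control libraries enter all 5 values. For Cldn4 both Setdb1-KO libraries (19.2 and 16.1 TPM) lay above both control libraries (6.98 and 6.32 TPM). The QKO libraries (11.1 and 10.0004 TPM) lay between the G9a;Suv39h1/2-TKO ones (12.2 and 9.51 TPM), with no direction between them.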

How the results depend on the processing

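No call of a member changed direction under any alternative run. The median over all genes changed sign in some comparisons after rescaling by median ratios, as given below. With a pseudocount of 0.1 more genes were called in most comparisons. Against control they numbered 1654 in Setdb1-KO, 193 in Suv39h1/2-DKO, 1756 in Suv39h1/2;Setdb1-TKO, 2320 in G9a-KO, 3014 in G9a;Setdb1-DKO and 1722 in G9a;Suv39h1/2-TKO cells, in place of 871, 75, 969, 1284, 1993 and 932. Within lines they numbered 1618 in the Suv39h1/2 pair, 1294 in the G9a pair, 2023 in the QKO pair and 1552 in Dux-KO QKO against QKO, in place of 888, 753, 1261 and 906, and 53 in the interaction of the Suv39h1/2-DKO line, in place of 23. In the second table that pseudocount gave 226 genes for doxycycline in G9a;Setdb1-DKO and 87 in QKO, 352 in Suv39h1/2-DKO, 805 in Suv39h1/2;Setdb1-TKO, 1693 in G9a-KO and 1418 in G9a;Suv39h1/2-TKO against control at dose 0, 363 in the Suv39h1/2 pair and 228 for the mean response, in place of 145, 57, 215, 482, 1102, 913, 227 and 135.

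The pseudocount of 0.1 also moved counts of members. Called higher were 5 in Suv39h1/2;Setdb1-TKO and 2 in G9a;Suv39h1/2-TKO against control and 2 in the Suv39h1/2 pair, in place of 3, 0 and 1, and at dose 0 there was 1 each in Suv39h1/2;Setdb1-TKO and G9a;Suv39h1/2-TKO against control and in the G9a pair, in place of 0, and 0 in the QKO pair, in place of 1. Called lower was 1 in G9a-KO (Hand1, at -1.69), in place of 0, and 3 in the interaction of the G9a;Suv39h1/2-TKO line, in place of 1. Without the filter there were 15 genes in the interaction of the Suv39h1/2-DKO line and 2 genes in the doxycycline interaction of QKO, in place of 23 and 0, and 0 members in the QKO pair at dose 0, in place of 1. Rescaling by median ratios gave 1 member lower in the G9a-KO interaction (Hand1, -1.09), 2 in that of the G9a;Suv39h1/2-TKO line and 0 in G9a-KO at dose 0, in place of 0, 1 and 1, and 39 genes for doxycycline in control, in place of 25.

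Rescaling moved the share of calls that were higher to 54.5% in Dux-KO QKO against QKO and 80.0% in Setdb1-KO against control, against 72.1% and 65.6% as deposited, and to 69.6% in the interaction of the Suv39h1/2-DKO line, against 91.3%. In the second table it moved that share to 92.2% for doxycycline in G9a;Setdb1-DKO, 32.8% in Suv39h1/2-DKO, 47.5% in Suv39h1/2;Setdb1-TKO and 51.4% in G9a-KO against control at dose 0 and 64.9% in the G9a pair, against 71.7%, 15.3%, 33.0%, 38.5% and 75.3%. Against control at dose 0 the share also moved to 54.3% in G9a;Suv39h1/2-TKO and 56.2% in QKO, against 45.2% and 47%. It moved the median of all genes to 0.03 in Setdb1-KO, 0.07 in QKO against control and 0.04 in the QKO pair, against -0.12, -0.05 and -0.07, and at dose 0 in G9a-KO to -0.01, against -0.15.

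Without the 6 libraries of high small nucleolar RNA host genes, doxycycline called 51 genes in control, 106 in Suv39h1/2-DKO, 64 in Suv39h1/2;Setdb1-TKO, 133 in G9a;Suv39h1/2-TKO and 129 in QKO cells, in place of 25, 62, 34, 63 and 57, and its interaction in the G9a pair 39, in place of 0. With their class as a term the counts were 65 in control, 41 in Setdb1-KO, 105 in Suv39h1/2-DKO, 57 in Suv39h1/2;Setdb1-TKO, 241 in G9a;Setdb1-DKO, 105 in G9a;Suv39h1/2-TKO and 123 in QKO cells, and 1 for the interaction. Both settings gave 0 members lower in G9a-KO at dose 0, in place of 1, and 1 higher in G9a;Suv39h1/2-TKO against control and 2 in the QKO pair, in place of 0 and 1, and leaving the libraries out also gave 1 in Suv39h1/2;Setdb1-TKO, in place of 0.

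Leaving out each library in turn leaves 1 group with a lone library, assumed to vary like the other groups. Members called higher then ranged between 0 and 1 in G9a;Suv39h1/2-TKO against control, and at dose 0 between 1 and 3 in G9a;Setdb1-DKO, 0 and 1 in G9a;Suv39h1/2-TKO and 3 and 5 in QKO against control, 0 and 2 in the G9a pair and 0 and 1 in the QKO pair. Members called lower ranged between 0 and 1 in the interaction of the G9a-KO line, 1 and 3 in that of the G9a;Suv39h1/2-TKO line, 0 and 1 for doxycycline in Suv39h1/2-DKO and 0 and 1 in G9a-KO at dose 0. Genes called ranged between 13 and 31 in the interaction of the Suv39h1/2-DKO line. For doxycycline they ranged between 14 and 19 in control, 8 and 24 in Setdb1-KO, 34 and 65 in Suv39h1/2-DKO, 73 and 281 in G9a-KO, 73 and 236 in G9a;Setdb1-DKO, 32 and 45 in G9a;Suv39h1/2-TKO and 35 and 42 in QKO. They ranged between 116 and 296 in Suv39h1/2-DKO against control and 122 and 235 in the Suv39h1/2 pair at dose 0, and 0 and 2 in the doxycycline interaction of the G9a pair.

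With the replicate block the interaction of the Suv39h1/2-DKO line called 38 genes, in place of 23, and no other call of a comparison or member changed side. The labels name nothing that same-numbered libraries share. Their deviations correlated above 0.1 in 25 of 36 pairs of groups in the first table (median r 0.27, highest 0.62) and 66 of 120 in the second (median 0.12), so not in every pair, and whether some of them share a batch was not tested. The causes of these changes were not tested. With 2 libraries a group and no read totals, changes short of 2-fold and genes near 1 TPM are the limit of what these values show.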
